A study of Mus musculus with 40 samples.

Results

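The replication-dependent histone genes encode the bulk of the histones that package newly made DNA. They were taken here as all protein-coding genes of the table of uniquely mapped reads whose GENCODE symbol was H2ac, H2bc, H3c or H4c with a number, or H1f1 to H1f5. The rule, which used names and no measured value, found 67 of 56748 genes, of which 5 encode linker histone H1, 18 encode H2A, 19 encode H2B, 12 encode H3 and 13 encode H4. They lie in clusters, with 23 and 30 members in a pair of clusters on chromosome 13 (chr13:21899933-22227846 and chr13:23715220-24118834, GRCm39), 10 on chromosome 3 (chr3:96127181-96177448) and 3 on chromosome 11 (chr11:58839746-58847656), while H4c16 stands alone on chromosome 6.

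RNA was measured in 40 total RNA libraries of XY mouse embryonic stem (mES) cells held in the naive state with LIF and inhibitors of MEK and GSK3, and of epiblast-like cells (EpiLCs) made from them in 48 h with FGF and activin A. The study asked what the lamins and LBR (lamin B receptor), proteins of the nuclear envelope that hold heterochromatin at its edge, do for gene expression in these cells. At each stage there were 8 libraries of wild-type (WT) cells, 4 of cells with *Lbr* disrupted by frameshift (LBRKO), 4 of cells lacking *Lmna*, *Lmnb1* and *Lmnb2* (TKO) and 4 of cells with *Lbr* disrupted in addition on the TKO background (QKO), each from its own well. TKO cells were 1 line, set against 1 littermate WT line, so lamin loss and cell line cannot be told apart. All QKO libraries come from 1 clone that was edited in these TKO cells. The LBRKO libraries carry no clone name in the labels, and p-values therefore measure the spread between wells. By the study's account the TKO cells carry an extra chromosome 8 with partial loss of the Y chromosome, and WT cultures held some cells with chromosome gains or Y loss.

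Replication-dependent histone mRNAs rise in S phase, when a cell copies its chromatin, and are destroyed when replication ends. Unlike other mRNAs they carry no poly(A) tail and end instead in a short stem-loop, bound by the stem-loop binding protein SLBP and cut with the help of the U7 snRNP. Libraries of total RNA such as these can record them, where libraries selected for poly(A) would lose most of them.

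The stem-loop was looked for in the genome within 200 bases after each stop codon, as a stem of 6 base pairs that opens with GG and a loop of 4 bases that opens with T and holds no G. It was found for 65 of 67 members, 21 to 58 bases after the stop codon (median 30), and no match was found for H2bc21 and H2ac22. There were 8 forms, the commonest of which was carried by 42 members. All 13 H4 genes had a stem opening in GGCCC (11 genes) or GGTCC (2 genes, H4c11 and H4c2), and the 52 members of the other types with a match opened in GGCTC. The members below were chosen to show 1 gene of each histone type and the rarer H4 and H2A forms. Capitals mark the stem-loop, with 5 bases on each side, 5′ to 3′ in the sense of the gene:
H1f1 (chr13:23948370-23948395, plus strand): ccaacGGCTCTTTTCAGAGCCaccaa
H2ac20 (chr3:96127729-96127754, minus strand): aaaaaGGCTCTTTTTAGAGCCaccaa
H2bc15 (chr13:21938698-21938723, plus strand): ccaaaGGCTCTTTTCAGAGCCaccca
H3c1 (chr13:23945868-23945893, minus strand): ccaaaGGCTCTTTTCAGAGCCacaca
H4c8 (chr13:23715623-23715648, plus strand): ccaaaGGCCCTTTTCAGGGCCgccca
H4c1 (chr13:23944778-23944803, minus strand): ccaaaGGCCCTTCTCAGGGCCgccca
H4c11 (chr13:21919602-21919627, plus strand): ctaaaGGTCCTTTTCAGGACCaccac

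Genes of H2A and H2B commonly stand head to head and share the DNA between their starts. Of 14 such pairs with starts under 1000 bases apart, 13 joined an H2A to an H2B gene, with 175 to 305 bases between the annotated starts. The sequences between a pair whose partners both rose over 2-fold in a comparison (H2bc1 and H2ac1) and a pair of which 1 partner fell (H2ac15 and H2bc15) are given, since later results turn on them. Of the 305 bases between H2bc1 and H2ac1 the 300 nearest H2ac1 are shown. In these, capitals mark the TATA box letters TATAAA, the CCAAT box, and also the octamer ATTTGCAT, on either strand:
H2ac15 and H2bc15 (chr13:21937998-21938292, plus strand): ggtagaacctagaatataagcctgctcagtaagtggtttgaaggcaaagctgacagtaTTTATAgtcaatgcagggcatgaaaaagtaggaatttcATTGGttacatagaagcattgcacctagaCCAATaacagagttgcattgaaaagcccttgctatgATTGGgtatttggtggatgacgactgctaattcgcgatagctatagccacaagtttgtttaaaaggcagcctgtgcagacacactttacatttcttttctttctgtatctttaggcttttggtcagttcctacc
H2bc1 and H2ac1 (chr13:24118145-24118444, plus strand): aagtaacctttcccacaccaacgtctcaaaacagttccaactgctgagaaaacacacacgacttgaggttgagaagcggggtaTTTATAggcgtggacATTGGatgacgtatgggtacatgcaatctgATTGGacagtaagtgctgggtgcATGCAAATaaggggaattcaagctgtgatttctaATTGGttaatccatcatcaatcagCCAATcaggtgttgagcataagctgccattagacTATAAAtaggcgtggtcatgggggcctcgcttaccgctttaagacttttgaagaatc
The first held 1 TATAAA, 3 CCAAT and 0 octamer matches, and the second 2, 4 and 1. RefSeq promoters (GRCm38.p6, 250 bases before to 50 after the start) were matched for 57 of 67 members. TATAAA was present in 34 of these (59.6%) against 14.2% of the first promoters of 27025 genes, CCAAT in 49 (86%) against 37.9%, and the octamer in 12 (21.1%) against 1.75%. CCAAT was in every matched promoter of H1, H2A, H2B and H3 genes but in 3 of 11 H4 promoters, and the octamer was in 6 of 17 H2A and 6 of 14 H2B promoters and in no promoter of H1, H3 or H4 genes. These letters occur by chance as well, and a match is not evidence of binding.

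Histone genes are near copies of each other. How much of each can be told from the rest of the genome bears on a table of uniquely mapped reads. Windows of 150 bases, the length of 1 read, were cut from the exons and looked up in GRCm39. Over the 67 members a median of 76.6% of windows had a single position, 17 members had all windows unique, and 20 had under 50%. The 5 H1 genes were unique throughout. H2A genes were the least unique, with a median of 41.1% and 10 of 18 under 50%, against medians of 79.7% for H2B, 70.7% for H3 and 87.5% for H4. The first chromosome 13 cluster, with a median of 39.1% and 14 of 23 members under 50%, was less unique than the second, with 81.5% and 2 of 30.

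The number of reads lost was read from a second table of the authors, in which reads with up to 100 positions were spread over the genes they match. H2bc24, with no unique window, had 2110 reads over all libraries in the unique table and 304050 in the second table, a ratio of 144. H2ac24 and H2bc23, also without a unique window, had ratios of 37.9 and 26.7. No read at all was counted in the unique table for H2ac19, H2ac18, H3c14, H3c13 and H2bc18 of the chromosome 3 cluster, each of which lies fully under another annotated gene, while the second table gave them 63481, 19645, 93100, 202570 and 154590 reads. Shared sequence and overlap cannot be told apart for most of these, as 0% of the windows of H2ac19, 4.58% of H2ac18, 26.3% of H3c13 and 68.3% of H3c14 are unique. For H2bc18 all windows are unique. Its exon is covered whole by the antisense Gm20628, and 59.3% of it by Gm42743 on its own strand. H2ac25, with all windows unique and a ratio of 35.1, overlaps Trim17, and H4c2, with 67.3% unique and a ratio of 50.3, overlaps 4930558J22Rik. Some other members that overlap a gene had ratios near 1, such as H1f4 (1.00), H2ac7 (1.01), H2ac13 (1.06), H2ac4 (0.914) and H2ac12 (0.839). Others had higher ratios, among them H2ac21 (2.88), H2ac15 (1.95) and H2ac20 (1.33), whose windows are all unique. H2ac22 (4.25), H2ac23 (3.69) and H2ac11 (2.58), with under 50% of windows unique, were higher too. Unique windows alone did not set the ratio. H3c10, with 9.54% unique, had 0.986, and H2bc14, with all windows unique and no overlapping gene, had 1.46. In all, exons of 24 members overlap another gene, and since whether counting used strand is not given in the sources used here, values of those members are uncertain. The 5 members without reads were not tested, which left 62 members among 23399 tested genes.

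**Figure D1:**
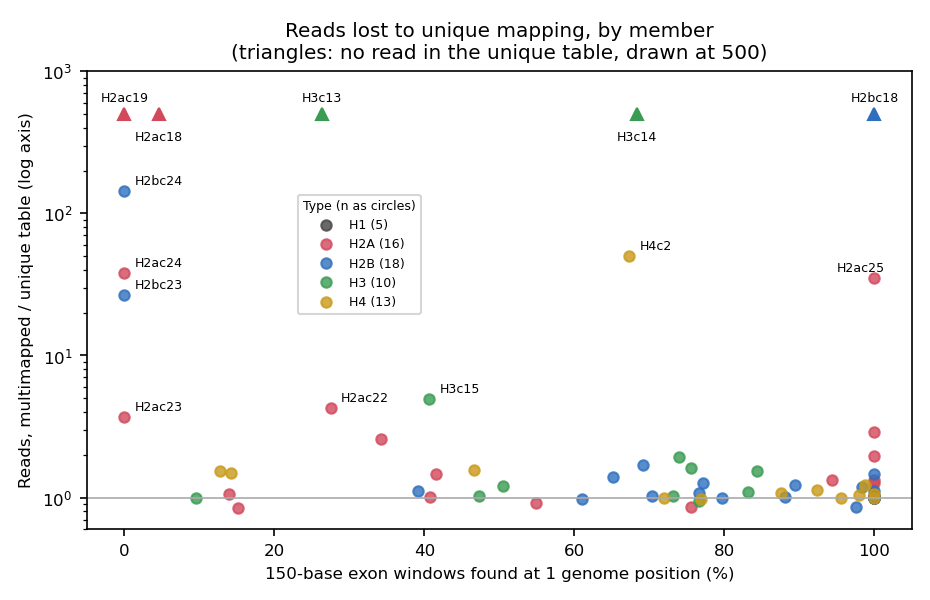
Each point is 1 histone gene, coloured by type. The x axis gives the percentage of its 150-base exon windows found at a single position of the genome, and the y axis, on a log scale, gives reads in the multimapped table over reads in the unique table, summed over the 40 libraries. Most genes sit near a ratio of 1, H2bc24 reaches 144, and the 5 triangles at the top are genes with no read in the unique table.

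Levels below are CPM (uniquely mapped gene counts scaled to a common library size, with TMM), and levels of different genes are compared only per kb of exon. Gene counts per library ran from 22.6 to 48.9 M. WT replicates 1 to 4 had fewer counts than WT replicates 5 to 8. In mES cells they had 27.7 to 33.1 M and 39.4 to 46.6 M. TKO and QKO mES libraries, at 24.5 to 33.6 M, were near the first set, and LBRKO, at 39.7 to 48.0 M, near the second. EpiLCs were split alike. H2A genes took 0.0396% of counts in WT mES 1 to 4 and 0.0574% in 5 to 8. They took 0.0550% in LBRKO and 0.0283% in TKO and in QKO. With multimapped reads the order of the sets was reversed, with 0.0886% in WT mES 1 to 4 and 0.0683% in 5 to 8. LBRKO, TKO and QKO then had 0.0635%, 0.0658% and 0.0606%. The part of H2A reads held by the unique table thus differed between the sets, for reasons that were not tested. Several H2A genes differed between the WT sets, which is given beside the results it touches. Whether the sets are batches is not given in the labels. The targeted genes followed the labels, as *Lmnb1* fell by 5.92 ± 0.08 (log2, SE) in TKO and by 5.21 ± 0.08 in QKO mES cells, while *Lbr*, whose frameshift need not remove its RNA, fell by 0.83 ± 0.14 in LBRKO mES cells. Of the stage markers, 4 of 4 naive genes fell and 4 of 4 primed genes rose from WT mES cells to WT EpiLCs. Of the fibroblast markers (3 collagen genes and *Thy1*), 3 of 4 rose over 2-fold in that passage, 1 rose and 1 fell in TKO and in QKO mES cells against WT, and their part in the results was not tested.

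In WT mES cells the best expressed histone gene per kb was H1f1, a linker histone, at 958 ± 143 CPM per kb (SD, n = 8). The next in order were the H4 genes H4c1 at 807 ± 71.3, H4c8 at 768 ± 164 and H4c12 at 729 ± 116 CPM per kb, neighbours that do not differ beyond their spread. H3c6 led the H3 genes at 661 ± 34.5 CPM per kb, with H3c11 at 527 ± 90.3 and H3c10 at 495 ± 88.8, and H2bc8 led the H2B genes at 560 ± 62.5, with H2bc12 at 387 ± 43.6 and H2bc13 at 366 ± 41.8. Among H1 genes, H1f5 had 558 ± 55.9 and H1f2 345 ± 40.8 CPM per kb. H2A genes were lowest, with H2ac15 at 245 ± 72.4 CPM per kb, and this order carries the loss of shared reads described above. Together the 67 genes took 0.994 ± 0.067% of gene counts in WT mES cells. Of their reads 30.4% fell on H4, 24.6% on H3, 24.3% on H1, 15.8% on H2B and 4.88% on H2A genes, and in the multimapped table the H2A share was 6.87%.

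The summed share was lower in cells without lamins than in WT cells at the mES stage. It ran from 0.864 to 1.1% of gene counts over the 8 WT libraries, from 0.865 to 1.00% in LBRKO, from 0.747 to 0.821% in TKO and from 0.701 to 0.879% in QKO. All 4 TKO libraries lay below all WT libraries, while QKO overlapped WT in its highest library. In EpiLCs the ranges overlapped, with 0.825 to 1.21% in WT, a highest library of 1.12% in LBRKO, 0.868 to 1.11% in TKO and 0.853 to 0.956% in QKO. The separation was clearest for H3, which took 0.238 to 0.263% of counts in WT mES cells, 0.165 to 0.184% in TKO and 0.143 to 0.199% in QKO. A sum over members was not given a test. In the multimapped table the means were 1.14% in WT, 1.03% in LBRKO, 0.962% in TKO and 0.924% in QKO mES cells. The WT range (0.908 to 1.26%) then overlapped that of TKO (0.938 to 0.987%). The lowest WT library was replicate 7 at 0.908%, and the next was replicate 8 at 1.04%, above all TKO libraries. By set, WT replicates 1 to 4 averaged 1.21 ± 0.041% (SD) there and replicates 5 to 8 averaged 1.07 ± 0.132%. In bulk RNA, a smaller share of cells in S phase and less histone RNA per S-phase cell cannot be told apart.

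**Figure D2:**
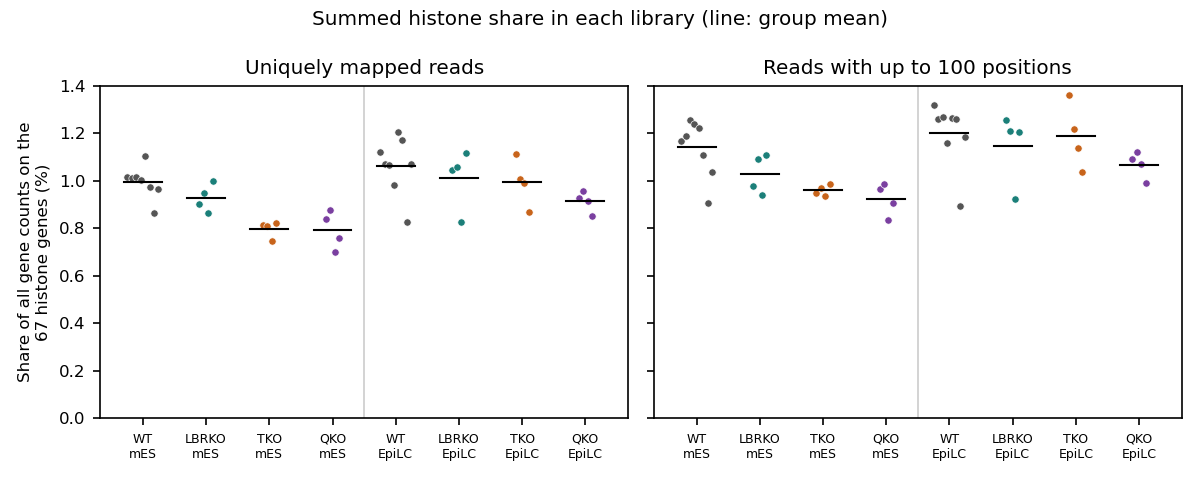
Each point is 1 library, and its height is the percentage of all gene counts that fell on the 67 histone genes, with the group mean as a line. The left panel uses uniquely mapped reads and the right panel reads with up to 100 positions. In the left panel the 4 TKO mES libraries, at 0.747 to 0.821%, lie below all 8 WT mES libraries.

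In the comparisons that follow, a gene rose or fell where the edgeR quasi-likelihood test, adjusted over all genes after Benjamini and Hochberg, gave p under 0.05, and it was called where its fold change was over 2 as well. In the passage from WT mES cells to WT EpiLCs, 5 of 62 members were called higher and 0 lower, where 18.2% of all genes were called higher and 12.9% lower. By the adjusted p alone 14 members rose (35.8% of all genes did) and 2 fell. The median log2 fold change was 0.12 over the members and 0.07 over all genes. Here and wherever 0 members were called in a direction below, DESeq2 called 0 as well, and the members with an unadjusted edgeR p under 0.05 in either direction numbered 18 from WT mES cells to WT EpiLCs, 20 in LBRKO, 36 in TKO and 42 in QKO mES cells, and 13, 23 and 38 in LBRKO, TKO and QKO EpiLCs. The 5 were the testis forms H2ac1 and H2bc1 and all 3 members of the chromosome 11 cluster, H2bc27, H2bc26 and H2ac25, and they were called in the multimapped table and against either set of WT replicates too.

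H2ac1 and H2bc1, forms of H2A and H2B known from male germ cells, stand head to head at one end of the second chromosome 13 cluster. H2bc1 lay at 1.42 to 3.72 CPM in the 8 WT mES libraries (median 2.61) and at 22.2 to 39.1 CPM in the 8 WT EpiLC libraries (median 25.5), and the groups did not overlap. The log2 fold change was 3.44 ± 0.18 (edgeR adjusted p = 2e-20). H2ac1 went from 0.796 to 1.57 CPM up to 7.24 to 17.0 CPM, a log2 change of 3.45 ± 0.19 (edgeR adjusted p = 4.7e-20). The partners thus rose by the same amount within their errors, from low levels for histone genes.

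On chromosome 11, H2bc27 lay at 3.02 to 5.73 CPM in WT mES cells and at 29.5 to 50.9 CPM in WT EpiLCs, a log2 change of 3.06 ± 0.11 (edgeR adjusted p = 1.2e-26). H2bc26, from 1.55 to 3.53 up to 6.80 to 12.3 CPM, changed by 1.92 ± 0.14 (edgeR adjusted p = 1.5e-15). Its head-to-head partner H2ac25, at 0.203 to 0.997 CPM and then 1.55 to 4.05 CPM, changed by 1.85 ± 0.24 (edgeR adjusted p = 5.3e-09). No library of either stage overlapped the other in these 3 genes. Members outside these 5 moved by under 2-fold. H1f4, a linker histone, rose by 0.58 ± 0.08 and H2bc7 by 0.67 ± 0.08, and no H3 gene passed the adjusted p. Over the types, 9 of 18 tested H2B genes rose, against 2 of 16 H2A, 2 of 5 H1, 1 of 13 H4 and 0 of 10 H3 genes.

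In cells without LBR alone few histone genes were called. In LBRKO mES cells 2 of 62 members were called lower and 0 higher (3.25% and 3.06% of all genes), and by the adjusted p alone 10 fell and 0 rose (11.2% and 12.7% of all genes). These counts rest on the WT libraries used. Against WT 1 to 4, 21 fell and 10 rose by the adjusted p (15.7% and 19.6% of all genes), and 6 were called lower (5.49%). With the replicate number as a block 23 fell and 11 rose (15.5% and 20.2% of all genes), and 6 were called lower (5.5%). Against WT 5 to 8, 4 fell and 0 rose (8.6% and 9.62% of all genes). Without LBRKO mES replicate 2, 5 were called lower. With multimapped reads 13 of 67 fell (11.3% of all genes) and 0 rose, and the median over H2A genes, 0.07 in the unique table, was -0.26. The called genes were again the testis pair. H2ac1 lay at 0.320, 0.414, 0.424 and 0.350 CPM in the 4 LBRKO libraries, below all WT libraries, a log2 change of -1.51 ± 0.29 (edgeR adjusted p = 9.2e-05). H2bc1 lay at 0.533, 1.98, 0.531 and 1.48 CPM, so that 2 libraries sat far under WT and 2 inside its range, with a log2 change of -1.19 ± 0.26 (edgeR adjusted p = 0.00049). Without LBRKO mES replicate 1 or replicate 3, the low pair, its change was -0.97 in either case and no longer over 2-fold. H2bc27 fell by 0.78 ± 0.14 and H2bc26 by 0.52 ± 0.18. Of the stage markers in these cells, 2 of 4 primed genes were called lower and 3 of 4 primitive endoderm genes rose by the adjusted p, 1 of them over 2-fold, and their part in the histone values was not tested.

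In LBRKO EpiLCs 0 members were called in either direction (3.04% of all genes higher, 2.63% lower). By the adjusted p 7 fell and 0 rose (14.2% and 11% of all genes). Here too the counts moved with the WT libraries, as 12 fell and 9 rose against WT 1 to 4 (14.7% and 14.8% of all genes). With the replicate number as a block 18 fell and 11 rose (16% and 15.8% of all genes). Against WT 5 to 8, 5 fell and 0 rose (13.2% and 8.93% of all genes). With multimapped reads 7 of 67 fell (14.5% of all genes) and 0 rose. H2bc1 fell by 0.98 ± 0.20 (edgeR adjusted p = 0.00022), with 12.9, 11.9, 11.1 and 20.3 CPM in the 4 libraries, all below the WT range. H2bc27 fell by 0.75 ± 0.12, with 27.6, 26.8, 17.0 and 27.9 CPM, also below all WT libraries. Markers of the stage moved with these genes, which rise at the passage: in LBRKO EpiLCs 4 of 4 naive genes rose by the adjusted p (median log2 change 1.20, 2 over 2-fold) and 3 of 4 primed genes fell (median -0.59). Their part in the lower values was not tested. Whether the rise of members at the passage differed between LBRKO and WT was tested as an interaction, and 1 member was called higher and 0 lower (3.12% and 2.88% of all genes). This was H2ac1, whose rise was larger in LBRKO by 1.05 ± 0.35 (edgeR adjusted p = 0.033). The call was lost when any 1 of 6 libraries was left out (WT mES replicate 5, WT EpiLC replicate 2 or 4, LBRKO mES replicate 1 or 4, LBRKO EpiLC replicate 4), with values of 0.84 to 1.05, and 3 members were called without LBRKO mES replicate 2.

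In cells without lamins more members had lower values in the table of unique reads, mostly by less than 2-fold, and the difference from LBRKO was not tested. In TKO mES cells 7 of 62 members were called lower and 0 higher, where 3.77% and 2.68% of all genes were. By the adjusted p alone 26 members fell, 41.9% of those tested, against 13.2% of all genes, and 1 rose (8.09% of all genes), H4c9, by 0.56 ± 0.18. The median log2 change was -0.36 over the members and -0.01 over all genes, and 55 of 62 members were below 0. The median was -0.80 for H2A (8 of 16 fell), -0.43 for H3 (7 of 10 fell), -0.34 for H1 (4 of 5 fell), -0.22 for H2B (5 of 18 fell) and -0.19 for H4 (2 of 13 fell). Against WT 1 to 4, the set near TKO in depth, the median over members was -0.30. Against WT 5 to 8 it was -0.40.

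In QKO mES cells 9 members were called lower and 1 higher (6.66% and 10.6% of all genes), and by the adjusted p alone 37 fell, 59.7% of those tested, against 23.5% of all genes, and 2 rose (21% of all genes). TKO and QKO were compared with the same WT libraries, and QKO was derived from the TKO line, so these counts are not independent. The median was -0.43 over the members and 0.01 over all genes. By type it was -0.81 for H2A (11 of 16 fell), -0.54 for H3 (8 of 10), -0.35 for H2B (10 of 18), -0.29 for H1 (4 of 5) and -0.20 for H4 (4 of 13). By place, 13 of 23 members of the first and 20 of 30 of the second chromosome 13 cluster fell in QKO, and 9 and 15 of them in TKO. Of the primed markers, 1 of 4 was called lower in TKO and 2 of 4 in QKO mES cells, and their part in the histone values was not tested.

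**Figure D3:**
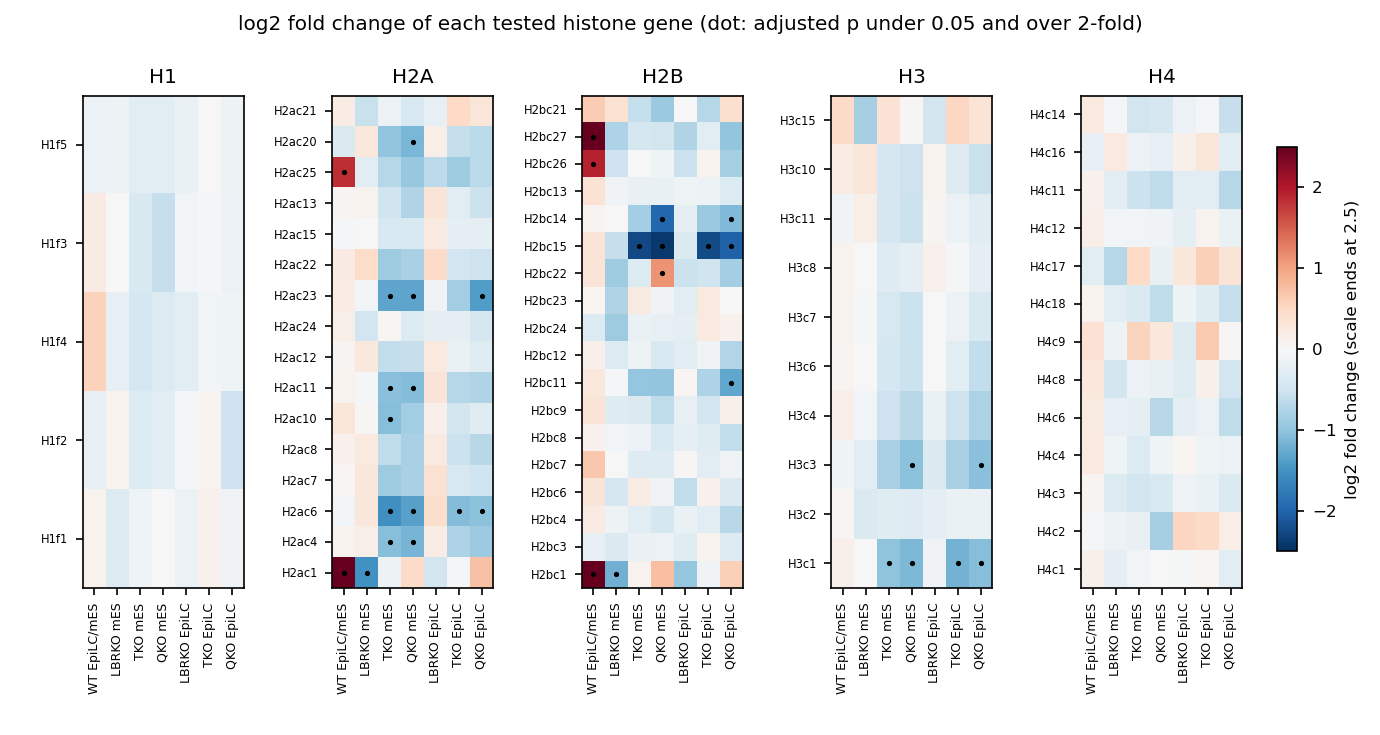
Colour gives the log2 fold change of each of the 62 tested histone genes (rows, by type and in genome order) in WT EpiLCs against WT mES cells and in each mutant against WT of its stage (columns), with blue for lower, red for higher and the scale ending at 2.5. A dot marks an edgeR adjusted p under 0.05 with a change over 2-fold. The dots in red gather in the first column, at H2ac1, H2bc1, H2bc27, H2bc26 and H2ac25, with 1 more at H2bc22 in QKO mES cells, and H2bc15 is dark blue in all 4 TKO and QKO columns.

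The largest change in cells without lamins belonged to H2bc15, an H2B gene of the first chromosome 13 cluster whose stem-loop and upstream sequence are given above. It lay at 98.7, 105, 99.5, 43.0, 82.3, 81.2, 110 and 82.8 CPM in WT mES cells, at 19.4, 19.7, 18.1 and 16.1 CPM in TKO and at 20.3, 13.6, 14.4 and 17.6 CPM in QKO. No TKO or QKO library came near the lowest WT library. The log2 change was -2.26 ± 0.27 in TKO (edgeR adjusted p = 1.9e-08) and -2.41 ± 0.28 in QKO (edgeR adjusted p = 1.7e-09). In WT EpiLCs H2bc15 lay at 54.5 to 156 CPM (median 117), against 23.5, 25.9, 21.4 and 22 CPM in TKO and 32.2, 27.1, 27.5 and 21 CPM in QKO EpiLCs, again without overlap. The changes there were -2.24 ± 0.27 (edgeR adjusted p = 4.5e-08) and -2.03 ± 0.27 (edgeR adjusted p = 2.4e-08). In LBRKO mES cells H2bc15 lay at 27.2, 70.3, 67.4 and 70.4 CPM and did not pass the adjusted p.

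Its head-to-head partner H2ac15 did not pass the test. H2ac15 lay at 37.5 to 133 CPM in WT mES cells (median 96.3), at 76.8, 80.8, 56.1 and 80.2 CPM in TKO and at 78.6, 102, 52.6 and 60.7 CPM in QKO, all inside the WT range. Its log2 changes of -0.39 in both mutants missed the adjusted p. The difference between the partners was not tested. All windows of H2ac15 are unique and 65.1% of those of H2bc15 are, with the rest shared with other H2B genes. Yet 35.1% of the H2ac15 exon lies under the antisense Gm55630. Its reads in the multimapped over the unique table had a ratio of 1.95, against 1.4 for H2bc15. In the multimapped table H2bc15 changed by -1.76 ± 0.27 in TKO and -1.94 ± 0.28 in QKO mES cells, and H2ac15 by 0.02 ± 0.17 and -0.12 ± 0.17.

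H2bc14, a neighbour in the same cluster, had unique windows throughout, yet a ratio of 1.46 of multimapped over unique reads. It lay at 79.6 to 132 CPM in WT mES cells (median 94.6), at 48.6, 56.5, 53.2 and 57.7 CPM in TKO and at 17.0, 19.2, 17.4 and 47.1 CPM in QKO. Both mutants were below all WT libraries, and QKO replicate 4 stood apart from the other 3. The log2 change was -0.86 ± 0.20 in TKO and -1.96 ± 0.22 in QKO (edgeR adjusted p = 8.5e-10). H2bc14 was also called lower in QKO against TKO mES cells (-1.1 ± 0.24, edgeR adjusted p = 0.00054), but without QKO replicate 1, 2 or 3 this difference was -0.95 to -0.99, and in the multimapped table it was -0.31 and missed the adjusted p. In EpiLCs H2bc14 lay at 75.8 to 128 CPM in WT, at 45.6, 74.9, 36.3 and 61.4 CPM in TKO and at 42.5, 55.2, 50.7 and 42.7 CPM in QKO, with changes of -0.92 ± 0.20 and -1.11 ± 0.21.

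H3c1 was the H3 gene with the largest fall. It lay at 127 to 200 CPM in WT mES cells (median 142), at 82.2, 85.9, 81.7 and 55.7 CPM in TKO and at 76.5, 89.4, 44.7 and 72.8 CPM in QKO, with no overlap with WT. The change was -1.01 ± 0.16 in TKO (edgeR adjusted p = 4.8e-06) and -1.11 ± 0.16 in QKO (edgeR adjusted p = 2.7e-07), close to the 2-fold limit, so that the TKO call was lost without WT replicate 1, 4 or 8 or TKO replicate 4 (-0.87 to -0.98) and the QKO call without QKO replicate 3 (-0.94). H3c3 lay at 194 to 284 CPM in WT, at 121 to 153 CPM in TKO and at 105 to 149 CPM in QKO mES cells, again without overlap, and changed by -0.82 ± 0.13 in TKO and -1.02 ± 0.13 in QKO. Its QKO call was lost in the multimapped table (-0.77 ± 0.16), against WT 5 to 8 (-0.81 ± 0.14) and when any 1 of 6 libraries was left out (WT mES replicate 1, 2 or 3, QKO mES replicate 1, 3 or 4, -0.96 to -0.99). The H2B gene H2bc11 lay at 79.8 to 118 CPM in WT, at 52.3 to 56.3 CPM in TKO and at 50.5 to 56.9 CPM in QKO mES cells. Its changes of -0.97 ± 0.12 and -0.99 ± 0.12 fell just short of 2-fold. Among the linker genes, H1f2 changed by -0.34 ± 0.11 and -0.29 ± 0.11 and H1f5 by -0.27 ± 0.10 and -0.28 ± 0.10 in TKO and QKO.

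The other called genes at the mES stage were H2A genes, and for all of these but H2ac20 the change was smaller by over 1.5 times in the multimapped table. H2ac6 lay at 24.2, 16.9, 22.2 and 19.1 CPM in WT mES replicates 1 to 4 and at 54.6, 33.4, 35.7 and 56.8 CPM in replicates 5 to 8, against 16, 10.2, 8.25 and 11.0 CPM in TKO and 16.8, 16, 7.03 and 11.5 CPM in QKO. Every mutant library was below every WT library, yet the WT sets did not overlap each other either. H2ac6 changed by -1.54 ± 0.32 in TKO and -1.36 ± 0.31 in QKO against all WT libraries, by -0.86 and -0.68 against WT 1 to 4, and by -0.54 ± 0.17 and -0.50 ± 0.17 in the multimapped table. H2ac4 changed by -1.06 ± 0.20 and -1.15 ± 0.21, and by -0.41 ± 0.13 and -0.52 ± 0.14 in the multimapped table. Its call was lost without WT mES replicate 5 or 8 in TKO (-0.96 to -1.0) and without QKO mES replicate 3 in QKO (-0.99). H2ac23, with no unique window, changed by -1.31 ± 0.19 in both, and by -0.46 ± 0.21 and -0.38 ± 0.21 in the multimapped table, which missed the adjusted p. H2ac20 of chromosome 3, with unique sequence throughout, changed by -0.99 ± 0.19 in TKO and -1.15 ± 0.19 in QKO, and by -0.82 ± 0.16 and -1.07 ± 0.17 in the multimapped table, though the QKO value was -0.97 without QKO mES replicate 3. H2ac10 was called in TKO (-1.07 ± 0.30), but its value was -0.43 against WT 1 to 4 and -0.93 to -0.98 without WT mES replicate 5 or 8 or TKO mES replicate 3. H2ac11 changed by -1.04 ± 0.18 in TKO and -1.08 ± 0.18 in QKO, and by -0.24 ± 0.16 and -0.36 ± 0.16 in the multimapped table, which missed the adjusted p, while its QKO value was -0.97 without QKO mES replicate 3.

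Of the 7 members called lower in TKO mES cells, 2 were called in the multimapped table (H2bc15 and H3c1), and H2bc15 alone was also called against each set of WT replicates. Of the 9 in QKO mES cells, H2bc15, H2bc14 and H3c1 were called in all of these. With multimapped reads, 3 of 67 members were called lower in TKO and 5 in QKO mES cells, near the shares of all genes (3.65% and 6.4%). In the multimapped table, where all 67 members were tested, 21 fell in TKO and 33 in QKO mES cells by the adjusted p, against 13.3% and 23.1% of all genes. The median over members there was -0.23 in LBRKO, -0.24 in TKO and -0.36 in QKO mES cells, all against the 8 WT libraries. LBRKO and TKO, which stood apart in the unique table (-0.12 and -0.36), thus had nearly the same median. Yet the summed multimapped share differed between the WT sets, at 1.21% in replicates 1 to 4 and 1.07% in 5 to 8. It was 1.03% in LBRKO and 0.962% in TKO, and multimapped medians against each WT set were not taken. The H2A median was -0.26, -0.24 and -0.39 in the 3 mutants, and the H3 median was -0.07, -0.36 and -0.59. The 5 members without unique reads could be seen there only. In mES cells, H3c13 averaged 141 ± 23.9 CPM (multimapped, SD) over the WT, 96.98 ± 14.2 over the TKO and 66.8 ± 14.4 over the QKO libraries, and H2bc18 averaged 95.1 ± 9.09, 95.5 ± 5.16 and 80.9 ± 12.1.

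**Figure D4:**
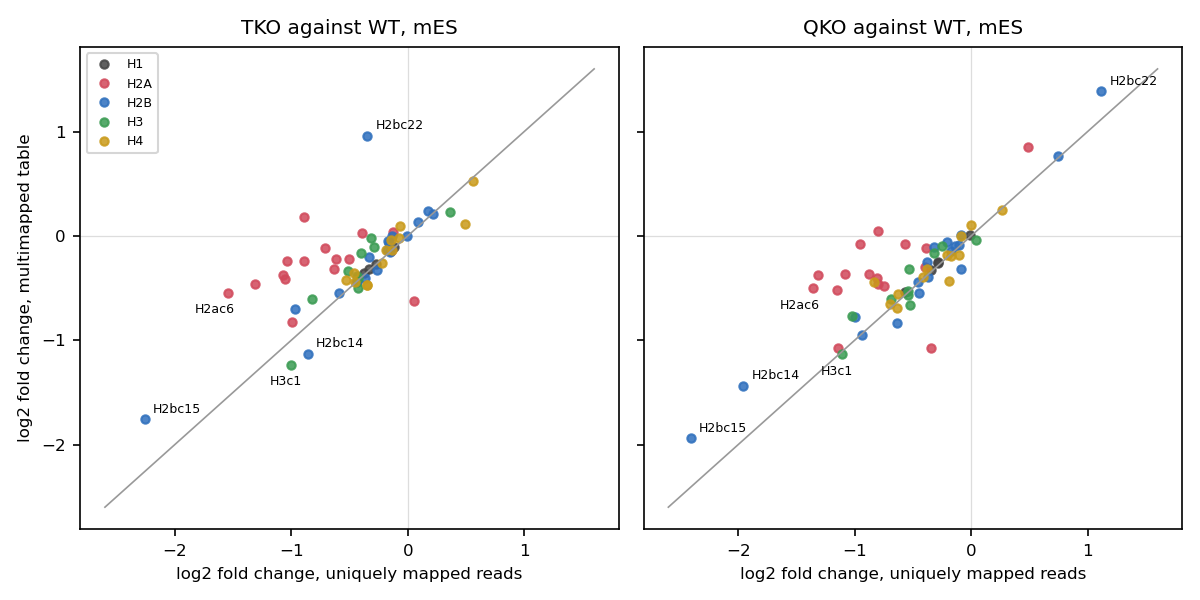
Each point is 1 of 62 histone genes, coloured by type, in TKO (left) and QKO (right) mES cells against WT. The x axis gives the log2 fold change from uniquely mapped reads and the y axis that from the multimapped table, and points on the diagonal have the same value in both. H2A genes such as H2ac6 lie above the diagonal, at about -0.5 in the multimapped table, while H2bc15, H2bc14 and H3c1 are low in both.

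H2bc22, an H2B gene of the first chromosome 13 cluster, was the member called higher in QKO mES cells. It lay at 11.1 to 48.6 CPM in WT (median 17.3), at 15.5, 19.6, 16.2 and 21.9 CPM in TKO and at 51.9, 73.6, 61.6 and 14.9 CPM in QKO, so that 3 QKO libraries stood above all WT libraries and replicate 4 inside their range. The change was 1.12 ± 0.38 (edgeR adjusted p = 0.015), and without QKO replicate 2 or 3 it was 0.88 or 1.01 and missed the adjusted p. In the multimapped table H2bc22 was higher in TKO too, by 0.96 ± 0.34. The same replicate 4 was the one that stood apart for H2bc14. H2bc1 rose in QKO mES cells without being called, with 4.01 to 4.55 CPM, above all WT mES libraries (0.74 ± 0.23). Against TKO, 1 member was called higher in QKO mES cells and 1 lower (4.09% and 2.12% of all genes), namely H2bc22 (1.47 ± 0.46) and H2bc14. The call of H2bc22 was lost without TKO replicate 1 or 3 or QKO replicate 2 or 3 (1.22 to 1.41), and in the multimapped table (0.43).

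In TKO EpiLCs 3 members were called lower and 0 higher (1.48% and 1.44% of all genes), namely H2bc15, H3c1 and H2ac6. In all, 14 fell by the adjusted p alone (22.6% of those tested, 10% of all genes) and H4c9 rose (4.63% of all genes did). H3c1 lay at 134 to 236 CPM in WT EpiLCs and at 88.8, 62.5, 90.6 and 54.5 CPM in TKO, a change of -1.17 ± 0.16. H2ac6 changed by -1.09 ± 0.31, but by -0.95 without WT EpiLC replicate 5 or 8, by -0.48 against WT 1 to 4 and by -0.16 ± 0.17 in the multimapped table, where it missed the adjusted p. The median over members was -0.17, against -0.04 over all genes, and it was 0.02 for H1 and 0.06 for H4 genes. The fall was at the background in the multimapped table, with a median of -0.04 over members and -0.03 over all genes, and 8 of 67 members fell where 10% of all genes did. Fewer members fell than in TKO mES cells, but the passage did not differ from that of WT for any member by the adjusted p, as given below.

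In QKO EpiLCs 7 members were called lower and 0 higher (8.16% and 13% of all genes), and 31 fell by the adjusted p alone (50% of those tested, 30.5% of all genes), while 2 rose (24.3% of all genes). Of all 67 members 28 fell with multimapped reads (30.5% of all genes). By type, 9 of 18 H2B, 8 of 16 H2A, 7 of 13 H4, 6 of 10 H3 and 1 of 5 H1 genes fell. The called genes were H2bc15, H2bc14, H2bc11, H3c1, H3c3, H2ac23 and H2ac6. H2bc11 lay at 79.9 to 138 CPM in WT EpiLCs, at 76.2, 80.5, 71.7 and 66.2 CPM in TKO and at 50.4, 53.6, 51.3 and 50 CPM in QKO, a change of -1.30 ± 0.12 in QKO (edgeR adjusted p = 1e-11) and of -0.78 ± 0.12 in TKO. H3c1 lay at 72.5, 84.7, 86.5 and 74.3 CPM in QKO (-1.07 ± 0.16, and -0.98 without WT EpiLC replicate 5). H3c3 lay at 82.5, 131, 128 and 96.6 CPM in QKO against 187 to 258 CPM in WT (-1.05 ± 0.13), a change of -0.75 ± 0.16 in the multimapped table and of -0.94 to -0.98 without QKO EpiLC replicate 1 or 4. H2ac23 changed by -1.4 ± 0.19, and by -0.85 ± 0.21 in the multimapped table. H2ac6 changed by -1.02 ± 0.31 and was not over 2-fold when any 1 of 5 libraries was left out (WT EpiLC replicate 5, 6 or 8, QKO EpiLC replicate 2 or 4, -0.88 to -0.95) or with DESeq2 (-0.96). The chromosome 11 genes, which rise at the passage, were lower too, with H2bc27 at 19.8, 23, 20.7 and 21.2 CPM against 29.5 to 50.9 CPM in WT (-0.98 ± 0.12, edgeR adjusted p = 9.7e-09) and H2bc26 at 4.68 to 6.41 CPM against 6.80 to 12.3 CPM (-0.83 ± 0.17). In these cells 3 of 4 naive genes rose by the adjusted p, 2 of them over 2-fold, 1 of 4 primed genes rose and 1 fell, and 2 of 4 primitive endoderm genes were called higher (median over the list 1.41), and their part in the histone values was not tested. The testis pair went the other way, with H2ac1 at 17.6 to 21.1 CPM in QKO, above all WT EpiLC libraries (0.74 ± 0.19), and H2bc1 at 39.6 to 44.7 CPM (0.60 ± 0.19).

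**Figure D5:**
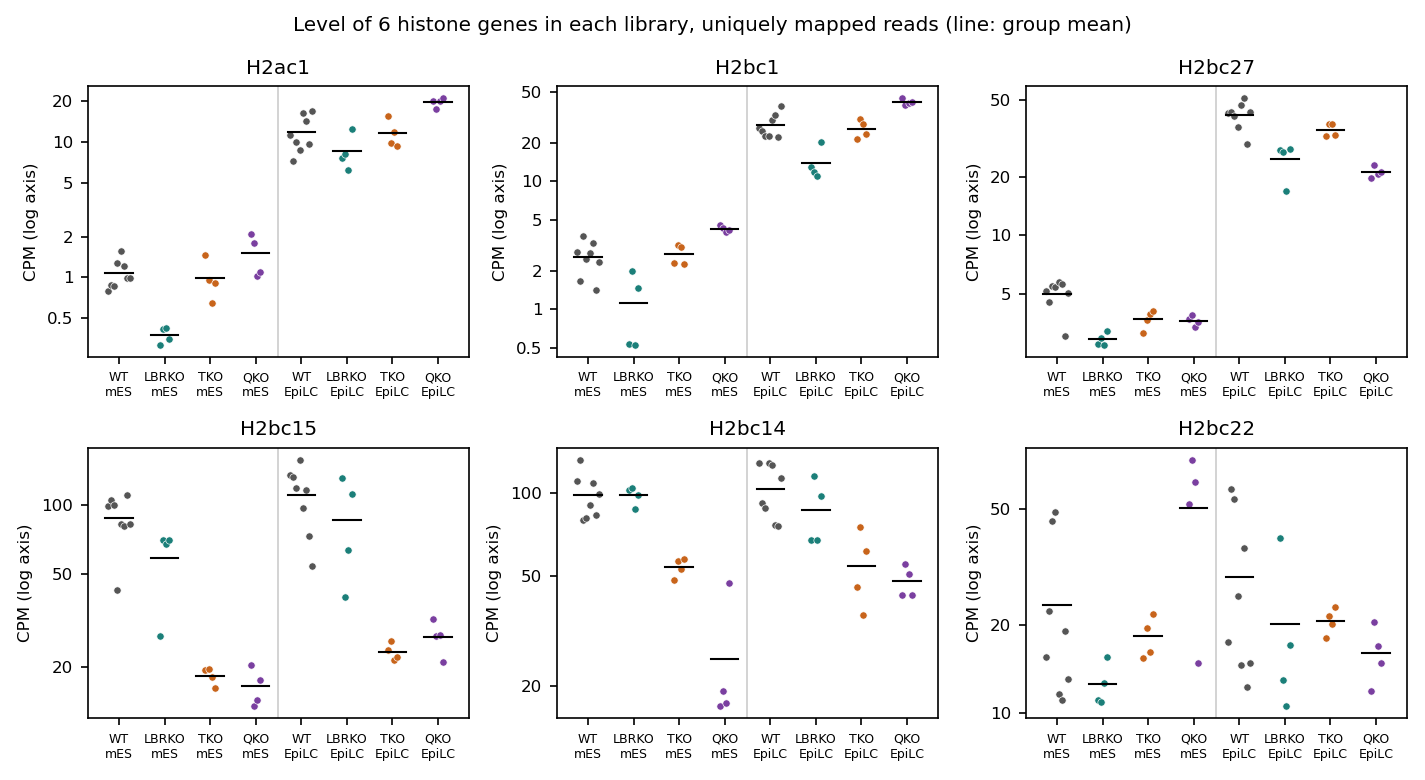
Each point is 1 library and each line a group mean, in CPM of uniquely mapped reads on a log axis, for H2ac1, H2bc1, H2bc27, H2bc15, H2bc14 and H2bc22 in the 8 groups. H2ac1, H2bc1 and H2bc27 are higher in all EpiLC groups, H2bc15 is low in TKO and QKO at both stages, and 1 QKO mES library departs from the other 3 for H2bc14 and H2bc22.

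QKO was set against TKO in EpiLCs as well, where 1 member was called higher and 0 lower (9.97% and 5.29% of all genes). There 17 members fell by the adjusted p alone, 27.4% of those tested, against 23% of all genes, so that the share was near the background. H4 genes made up 7 of the 17, and H2B genes another 7. H2bc21, the member called higher (1.1 ± 0.33), had 0.950 to 2.13 CPM in QKO and 0.424 to 1.02 CPM in TKO, and the call was lost without TKO replicate 4 (0.90) or QKO replicate 2 (0.98) or 4 (0.93). The passage to EpiLCs differed from that of WT for 0 members in TKO (1.88% and 1.15% of all genes were called higher and lower), with 5 members at an unadjusted p under 0.05. In QKO it differed for 1 member in each direction (6.94% and 5.69% of all genes), H2bc21 by 1.33 ± 0.41 and H2bc22 by -1.97 ± 0.57. With the adjusted p alone, the rise of H2bc27 was smaller in QKO by 0.52 ± 0.19 on the log2 scale and that of H2bc26 by 0.72 ± 0.25.

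Genes that act on histone mRNA were read in the same comparisons. *Slbp*, whose protein binds the stem-loop, had 107 ± 9.83 CPM in WT mES cells, 117 ± 8.85 in LBRKO, 101 ± 5.67 in TKO and 96.6 ± 2.52 in QKO, and passed the adjusted p in no comparison of a mutant with WT. *Npat*, the coactivator of histone genes, passed it in LBRKO EpiLCs only (-0.20 ± 0.07). *Eri1*, an exonuclease that trims the stem-loop end, rose by 0.23 ± 0.06 in LBRKO mES cells, fell by 0.24 ± 0.06 in QKO mES cells and rose by 0.35 ± 0.06 in QKO EpiLCs. Of 9 genes of histone transcription, 14 of 3′ end processing and export and 10 of decay, only *Ccne2*, a cyclin of S phase entry, was called in a mutant against WT (1.4 ± 0.08 in QKO EpiLCs). In TKO mES cells 0 processing genes fell and 1 rose by the adjusted p, and 1 decay gene moved in each direction. In QKO mES cells 4 processing genes fell and 1 rose, 5 decay genes fell and 1 rose, and the transcription genes ran from -0.92 (*Ccne1*, fell) to 0.60 (*Ccne2*, rose) on the log2 scale. In QKO EpiLCs 7 processing genes fell and 3 rose, the lowest being *Sympk*, a scaffold of the cleavage complex (-0.91 ± 0.06), and 5 decay genes fell and 3 rose. Over all genes, 13.2% fell and 8.09% rose in TKO mES cells, 23.5% and 21% in QKO mES cells, and 30.5% and 24.3% in QKO EpiLCs. The largest changes of these listed genes exceeded the median changes of the histone genes, and their part in the histone values was not tested.

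Markers of the cell cycle were read for the same comparisons. Of 20 genes of S phase and replication, 0 were called in any comparison, and by the adjusted p 6 fell and 1 rose in LBRKO mES cells, 1 fell and 5 rose in TKO mES cells, 5 fell and 3 rose in QKO mES cells, and 7 fell and 4 rose in QKO EpiLCs, against 0 and 3 in LBRKO and 1 and 3 in TKO EpiLCs. Over all genes, 11.2% fell and 12.7% rose in LBRKO mES cells, 13.2% and 8.09% in TKO mES cells, 23.5% and 21% in QKO mES cells and 30.5% and 24.3% in QKO EpiLCs. The median log2 change of this list was 0.06 in TKO and -0.02 in QKO mES cells. *Pcna*, the replication clamp, fell by 0.44 ± 0.10 and 0.41 ± 0.10 in them. Of 20 genes of G2 and mitosis 0 were called, with 1 lower and 1 higher in TKO mES cells, and 10 lower and 1 higher in QKO mES cells, by the adjusted p. Of 12 histone chaperones 0 were called, with 0 passing the adjusted p in TKO and 4 lower and 2 higher in QKO mES cells. Of 8 genes of cell cycle arrest, 5 fell and 0 rose by the adjusted p in TKO mES cells (median -0.39). In QKO mES cells 7 fell and 0 rose (median -0.59), and in LBRKO mES cells 2 fell and 1 rose. In EpiLCs 1 fell and 5 rose in LBRKO, 2 and 2 in TKO, and 4 and 4 in QKO. Of these, *Cdkn1c* fell by 1.33 ± 0.24 in TKO and *Gadd45a* by 1.16 ± 0.18 in QKO mES cells, while in QKO EpiLCs *Cdkn1a* and *Ccng1* rose by 1.28 ± 0.09 and 1.13 ± 0.05 and *Gadd45a* fell by 1.19 ± 0.16. The part of these genes in the histone values was not tested.

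Replacement histone variants, most of which have poly(A) tails and are made in S phase and outside it, were lower in QKO as well. Of 11 tested, 8 fell in QKO at each stage, 4 in TKO mES cells and 3 in TKO EpiLCs, where 23.5% and 30.5% of all genes fell in QKO mES cells and EpiLCs, 13.2% in TKO mES cells and 10% in TKO EpiLCs. None rose in QKO or in TKO mES cells, and 1 rose in TKO EpiLCs. In LBRKO 2 fell and 1 rose in mES cells, and 1 fell and 4 rose in EpiLCs. *H1f0*, the linker variant of resting cells, fell by 0.55 ± 0.07 in TKO and 0.50 ± 0.07 in QKO mES cells and by 1.62 ± 0.08 in QKO EpiLCs. *H3f3b*, which encodes H3.3, fell by 0.38 ± 0.09 in TKO and 0.33 ± 0.09 in QKO mES cells. Of 12 other short RNAs without poly(A) tails, 6 were tested, and 0 passed the adjusted p in TKO mES cells, where their values ran from -1.14 to 1.42 on the log2 scale, while *Scarna17* rose (1.64 ± 0.58) and *Snord118* fell (-1.04 ± 0.26) in QKO mES cells.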

How the data were processed

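Total RNA was depleted of ribosomal RNA and sequenced in paired reads of 150 bases, 1 library per well. The deposited table of counts was made by the authors from reads trimmed with cutadapt 2.5 and aligned to GRCm39 with GENCODE annotation by STAR 2.7.10a, keeping unique alignments (SAMtools 1.10) and counting per gene with featureCounts 1.6.4. The authors' second table of gene counts took reads with up to 100 positions, shared out over genes by TEcount. A table of transposable elements was not used here. Reads that match several histone genes are absent from the first table and only estimated in the second, so both are given. Gene counts per library (22.6 to 48.9 M) set the precision of low members.

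Counts were tested with edgeR 4.0.16 (R 4.3.3): genes passing filterByExpr, TMM scaling, 1 mean per group over the 40 libraries, quasi-likelihood tests and Benjamini-Hochberg adjustment over all 23399 genes tested. A rise at the passage was compared between genotypes as an interaction. Errors of fold changes are SE and errors of levels SD. The code was tested on simulated data. Alternatives were DESeq2 1.42.0, DESeq2 size factors, no filter, the replicate number as a block, WT replicates 1 to 4 or 5 to 8 alone, the multimapped table and each library left out (leaving out WT libraries was added after seeing the data). Symbols were checked against GENCODE M39, which holds 56017 of 56748 identifiers.

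Members and gene lists (histone transcription, 3′ processing, decay, chaperones, variants, S phase, G2 and mitosis, arrest, short RNAs, and markers of naive, primed, primitive endoderm and fibroblast cells) were chosen with earlier results of these data known. Members named were the 3 best expressed per kb of each type in WT mES cells, up to 5 called members with the largest rise and fall in each comparison with a mean of at least 1 CPM, members outside chromosome 13, and H2ac1 and H2bc1. H2ac11, H3c3, H4c9, H2bc7, H1f4, H1f3 and H2bc9, and members named for their uniqueness or sequence, were chosen after their values were seen.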

Additional observations from a re-analysis of the deposited data

Results flagged for a closer look

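Each named member was checked in each group for 1 library far from the rest, and 30 of 260 checks found one, where chance gives about 1 in 20. LBRKO EpiLC replicate 3 was the low library for H1f5 (285 CPM), H4c1 (327 CPM), H4c12 (166 CPM), H2bc27 (17.0 CPM) and H2ac23 (6.75 CPM). WT EpiLC replicate 7 was low for H1f1 (486 CPM), H2bc8 (255.9 CPM), H2bc12 (131 CPM) and H2bc11 (79.9 CPM), and WT mES replicate 7 for H2bc27 (3.02 CPM) and H2bc11 (79.8 CPM). In TKO mES cells, replicate 1 stood apart for H1f5 (367 CPM), H2ac4 (51.96 CPM) and H2ac20 (33.3 CPM), replicate 3 for H2ac15 (56.1 CPM), H3c11 (128 CPM) and the summed share of gene counts (0.747%), and replicate 4 for H4c12 (310 CPM) and H3c1 (55.7 CPM). In LBRKO mES cells replicate 1 stood apart for H2bc15 (27.2 CPM), replicate 2 for H2bc8 (308 CPM) and replicate 4 for H2ac15 (116 CPM) and H2ac4 (147 CPM). The others were H2ac15 in WT mES replicate 2 (37.5 CPM), H2bc15 in WT mES replicate 4 (43.0 CPM), H2ac25 in WT EpiLC replicate 8 (4.05 CPM), H1f5 in TKO EpiLC replicate 1 (506 CPM), H2bc14 in QKO mES replicate 4 (47.1 CPM), H1f1 in QKO EpiLC replicate 4 (647 CPM) and H2bc13 in QKO EpiLC replicate 2 (154 CPM).

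Against the WT passage, the change from mES cell to EpiLC differed by the edgeR adjusted p for 8 members, given as the difference of log2 changes. It was larger in LBRKO for H2ac1 (1.05). In QKO it was larger for H2bc21 (1.33), H2bc14 (0.84), H2bc9 (0.76) and H1f3 (0.42), and smaller for H2bc22 (-1.97), H2bc26 (-0.72) and H2bc27 (-0.52).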

How the results depend on the processing

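Of 2081 alternatives to the 109 fold changes of named members past the adjusted p, 2080 kept the direction, and H2ac23 in QKO against TKO EpiLCs became 0.16 in the multimapped table. These fold changes were picked for passing in largely the same libraries, so a kept direction says little. For the 36 over 2-fold, 81 of 722 alternatives were no longer over 2-fold or past the adjusted p. The 5 members called at the WT passage were called in every alternative. Counts of called members moved as follows. Shares over all genes moved as well and are given in brackets. With the replicate number as a block, LBRKO mES cells had 1 higher (5%) and 6 lower (5.5%) and TKO mES cells 4 lower (3.15%). With it QKO mES cells had 0 higher (11.3%), LBRKO EpiLCs 2 higher (4.09%) and QKO EpiLCs 1 higher (13.8%). Against WT replicates 1 to 4, LBRKO mES cells had 1 higher (5.72%) and 6 lower (5.49%) and QKO mES cells 0 higher (11.7%). Against the same set LBRKO EpiLCs had 2 higher (3.84%), TKO EpiLCs 1 lower (1.19%), QKO EpiLCs 1 higher (12.8%), and the QKO passage 0 higher (6.8%). Against WT replicates 5 to 8, TKO mES cells had 1 higher (4.19%), LBRKO EpiLCs 1 lower (2.26%) and TKO EpiLCs 1 higher (3.04%) and 5 lower (2.02%). Against that set QKO EpiLCs had 1 higher (12.9%) and the LBRKO passage 0 higher (2.65%). In the multimapped table, with 67 members tested, TKO mES cells had 3 lower (3.65%), QKO mES cells 5 lower (6.4%) and QKO EpiLCs 4 lower (7.78%). These 3 counts were near the shares over all genes. TKO EpiLCs had 1 higher (1.39%) there, and QKO against TKO mES cells 0 in each direction (3.86% higher, 2.04% lower). The LBRKO passage had 2 higher (3.1%), and the QKO passage 2 higher (6.8%) and 0 lower (5.43%) in the multimapped table. There the summed share was 1.14, 1.03, 0.962 and 0.924% in WT, LBRKO, TKO and QKO mES cells and 1.20, 1.15, 1.19 and 1.07% in the EpiLCs. The causes were not tested.

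With 1 library left out, members called lower ranged from 1 to 5 in LBRKO mES cells (1 without replicate 1 or 3, 5 without replicate 2), 4 to 8 in TKO mES cells (4 without WT replicate 8), 5 to 11 in QKO mES cells (5 without QKO replicate 3), 0 to 1 in LBRKO EpiLCs (1 without WT replicate 3, 4 or 7 or LBRKO replicate 4), 2 to 5 in TKO EpiLCs (5 without TKO replicate 1) and 5 to 8 in QKO EpiLCs. Members called higher ranged from 0 to 1 in QKO mES cells and in QKO against TKO at both stages, 0 to 3 in the LBRKO passage and 1 to 2 in the QKO passage (2 without QKO mES replicate 4), and those lower from 0 to 1 in QKO against TKO mES cells.

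The labels do not say that a replicate number marks a shared batch, so the block is an alternative. Same-numbered wells of WT mES cells and WT EpiLCs deviated together in part (8 correlations of 0.077 to 0.662, median 0.311, against -0.11 for other numbers), and so did those of TKO and QKO EpiLCs (4 of 0.093 to 0.458, median 0.336, against -0.03), though 3 of 8 and 3 of 4 wells correlated best with their own number. In 0 of 28 pairs of groups was every correlation over 0.1 (range -0.488 to 0.662) and the wells were not treated as paired, though this does not show that they are independent. Members under 1 CPM, such as H2bc21 and H2ac25, rest on few reads.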
